A study of Mus musculus with 23 samples.

Results

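The Cyp3a genes encode cytochrome P450 enzymes of the liver and gut, and 8 of them (Cyp3a11, Cyp3a13, Cyp3a16, Cyp3a25, Cyp3a41a, Cyp3a41b, Cyp3a44 and Cyp3a59) are described here in mouse liver. They were taken by symbol from a table of 24475 genes, with earlier results of these data known. The table also holds Cyp3a57, which is not among the 8 and is not described here. All 8 passed a filter on low values that kept 11939 genes. The 23 liver libraries came from male C57BL/6J mice kept on chow or on a high-fat diet (HFD) over 4 months. Antibody was given over 3 weeks, at a dose of 10 mg/kg. Control antibody was given to the mice of 5 chow libraries (1 to 5) and 6 HFD libraries (12 to 17). REGN1193, which blocks the glucagon receptor (GCGR), was given to those of 6 chow libraries (6 to 11) and 6 HFD libraries (18 to 23). The labels call the other antibody REGN496, and it was taken as the isotype control by elimination. No group lacked an antibody, and each diet had its own control group. The labels do not say that each library is 1 mouse, so p-values rest on how far libraries of a group scatter, and that scatter may be technical. Levels are RPKM, reads scaled to gene length and to library size, with ± SD. Fold changes are differences of log2(RPKM + 1), with ± SE. A gene is called higher or lower where limma's p, adjusted by the Benjamini-Hochberg method over all 11939 genes, is under 0.05.

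Cyp3a enzymes are haem proteins of the endoplasmic reticulum. They oxidise steroids, bile acids and a wide range of drugs, taking electrons from the reductase Por and from cytochrome b5. Their transcription in hepatocytes is known to be raised by the xenobiotic receptors PXR (Nr1i2) and CAR (Nr1i3), which bind DNA together with RXR (Rxra). Cyp3a11 is known as the main Cyp3a enzyme of adult mouse liver. Cyp3a16 is known from fetal and newborn liver, Cyp3a41a, Cyp3a41b and Cyp3a44 from female liver, and Cyp3a13 and Cyp3a25 from both liver and gut. The livers measured here were all male.

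All 8 genes lie on chromosome 5 of GRCm38, 7 on the minus strand and Cyp3a59 on the plus strand. Cyp3a13 (chr5:137892933-137925610) lies apart from the rest. The others follow each other as Cyp3a16 (chr5:145436309-145469740), Cyp3a41b (chr5:145558664-145584732), Cyp3a41a (chr5:145694049-145720136), Cyp3a44 (chr5:145773983-145805891), Cyp3a11 (chr5:145854607-145879854), Cyp3a25 (chr5:145977192-146009644) and Cyp3a59 (chr5:146079208-146114978). These positions are from RefSeq for GRCm38.p6, and each transcript has 13 exons in the GENCODE annotation.

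Reads were 33 bases long, so the likeness of these sequences sets how far a read can tell the genes apart. The first 60 coding bases of each member, from the GENCODE transcripts of GRCm38, show the 3 kinds of sequence in the family, and capitals mark the bases that differ from Cyp3a11.
Cyp3a11: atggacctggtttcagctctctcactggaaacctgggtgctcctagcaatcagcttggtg
Cyp3a16: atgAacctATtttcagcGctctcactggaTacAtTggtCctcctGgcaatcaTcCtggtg
Cyp3a41a: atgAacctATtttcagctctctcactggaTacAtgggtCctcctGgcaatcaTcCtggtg
Cyp3a41b: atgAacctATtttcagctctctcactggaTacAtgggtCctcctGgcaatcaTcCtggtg
Cyp3a44: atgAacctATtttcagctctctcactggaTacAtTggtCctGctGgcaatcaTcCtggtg
Cyp3a25: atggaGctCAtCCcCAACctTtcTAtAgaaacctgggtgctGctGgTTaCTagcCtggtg
Cyp3a59: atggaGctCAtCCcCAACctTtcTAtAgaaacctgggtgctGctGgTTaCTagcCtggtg
Cyp3a13: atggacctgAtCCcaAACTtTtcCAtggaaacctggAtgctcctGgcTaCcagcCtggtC
Cyp3a41a and Cyp3a41b had the same 60 bases, which differed from Cyp3a11 at 9, and Cyp3a25 and Cyp3a59 also had the same 60 bases, which differed from Cyp3a11 at 20. Cyp3a16 and Cyp3a44 each differed from Cyp3a11 at 11, and Cyp3a13 at 16. Over the whole coding sequence, Cyp3a11 was 95.2% identical to Cyp3a41a, 94.9% to Cyp3a44 and 92.8% to Cyp3a16, but only 76.4% to Cyp3a13 and 76.0% to Cyp3a25. Cyp3a41a and Cyp3a41b were 99.9% identical, and Cyp3a25 and Cyp3a59 97.5%.

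The transcripts were then split into all their 33-base words, and each word was looked up in all GENCODE transcripts. In Cyp3a13 100% of the words occurred in no other gene. The share was 68.5% in Cyp3a11, 74.8% in Cyp3a16, 55.2% in Cyp3a25, 54.3% in Cyp3a44 and 53.5% in Cyp3a59. It was only 0.25% in Cyp3a41a, 5 of 2028 words, and 4.43% in Cyp3a41b. Allowing 2 mismatches, 70.0% of the words of Cyp3a41a, 63.8% of those of Cyp3a44 and 51.9% of those of Cyp3a16 were found in Cyp3a11, and 93.0% of those of Cyp3a59 in Cyp3a25. Levels of Cyp3a41a and Cyp3a41b taken singly are therefore uncertain, and their sum is given beside them. How the authors assigned reads that fit several genes is not given in the sources used here.

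**Figure D1:**
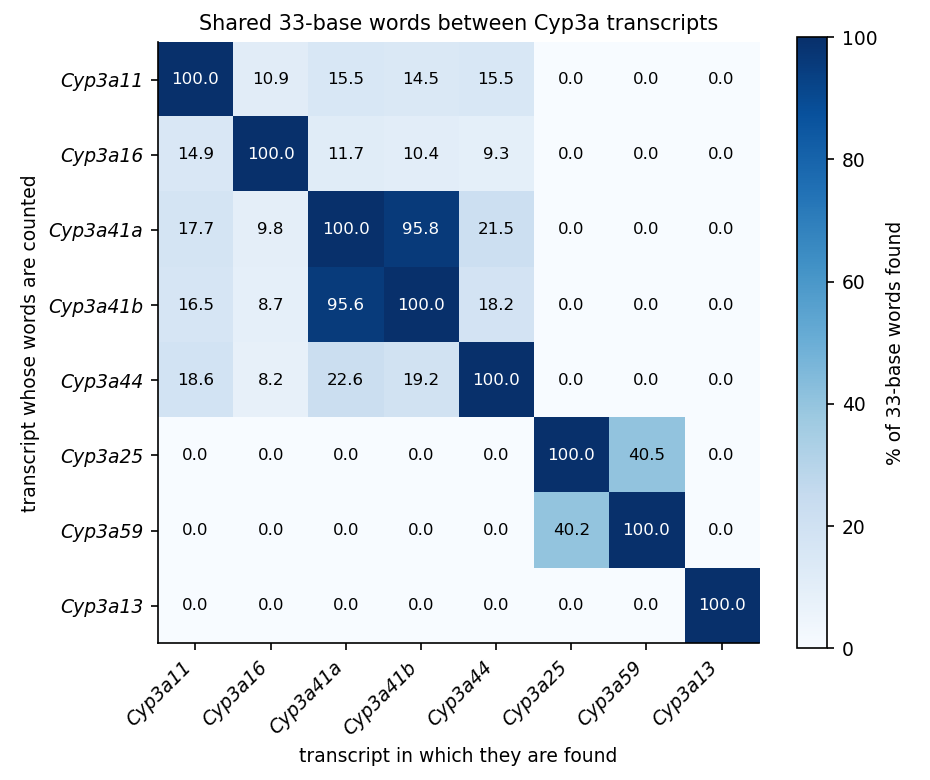
Percentage of the 33-base words of each Cyp3a transcript (vertical axis) that are also found in each other member's transcript (horizontal axis), with no mismatch allowed. Cyp3a41a and Cyp3a41b share 95.8% of the words of Cyp3a41a, Cyp3a25 and Cyp3a59 share 40.5% of those of Cyp3a25, and Cyp3a13 shares none with any member.

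On chow with control antibody, Cyp3a11 made up 86.4% ± 2.64 of the summed RPKM of the 8 genes (SD, n = 5) and ranked 28 among all genes by mean level. Its values in the 5 control libraries were 2989, 3189, 3218, 4577 and 4556 RPKM. Given GCGR antibody on chow, they ran from 2957 over a median of 3338 to 4410 RPKM. On HFD the control libraries lay between 230.6 and 333.2 with a median of 287.7 RPKM, and the GCGR antibody libraries between 694 and 1247 with a median of 883 RPKM. The chow groups overlapped each other, while every HFD library lay below every chow library and the 2 HFD groups did not overlap. The chow means were 3706 ± 791 RPKM (SD, n = 5) for control antibody and 3494 ± 513 RPKM (n = 6) for GCGR antibody. The HFD means were 282 ± 35 RPKM (n = 6) and 905 ± 207 RPKM (n = 6).

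Cyp3a25, the next most abundant member, was at 401, 372, 562, 418 and 553 RPKM in the control chow libraries. Given GCGR antibody on chow, it ran from 332 over a median of 420.1 to 526 RPKM. On HFD it ran from 119 over 153 to 178 RPKM with control antibody and from 209 over 237 to 288 RPKM with GCGR antibody. The order of the groups was that of Cyp3a11, again with no overlap between the HFD groups, but the distance between chow and HFD was smaller. Cyp3a25 was 12.8% ± 3.06 of the level of Cyp3a11 on chow and 55.9% ± 12.8 on HFD with control antibody, and 12% ± 1.27 and 27.7% ± 6.24 with GCGR antibody. Its values ran from 9.14% to 17.5% in the 11 chow libraries, from 40.2% to 76.1% in the control HFD libraries and from 19.8% to 37.2% with GCGR antibody on HFD.

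Cyp3a13 was the member that varied least with diet and antibody. It was at 46.5, 47.1, 55.9, 50.1 and 57.3 RPKM in the control chow libraries and between 43.4 and 51.6 with GCGR antibody on chow (median 46.2). On HFD it lay between 36.8 and 50.4 with control antibody (median 41.2) and between 37.3 and 55.8 with GCGR antibody (median 45.6). All 4 groups overlapped. As the other members fell, its share of the summed RPKM of the family went from 1.23% ± 0.185 on chow to 8.75% ± 1.23 on HFD with control antibody.

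Cyp3a59 was close to Cyp3a13 on chow, at 30.0, 28.5, 59.3, 49.9 and 80.2 RPKM with control antibody, and the SDs of the 2 genes overlapped there (51.4 ± 4.99 and 49.6 ± 21.6 RPKM). On HFD it was well below Cyp3a13, between 4.78 and 9.40 with control antibody (median 7.90) and between 9.91 and 14.9 RPKM with GCGR antibody (median 12.4). The lowest GCGR antibody library on HFD was thus just above the highest control library. With GCGR antibody on chow it ran from 21.1 to 64.3 RPKM. Relative to its mean, Cyp3a59 had the largest SD of the 8 members in both chow groups.

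The 4 remaining members were low, with group means between 1.78 and 4.00 RPKM on chow. Cyp3a44 was at 2.98, 3.38, 4.53, 4.71 and 4.39 RPKM in the control chow libraries and between 2.69 and 3.29 with GCGR antibody. On HFD it lay between 0.123 and 0.274 with control antibody (median 0.190) and between 0.406 and 1.48 RPKM with GCGR antibody (median 0.602). Cyp3a16 was at 2.95, 3.24, 2.44, 3.42 and 5.14 RPKM in the control chow libraries and between 2.85 and 4.39 with GCGR antibody. On HFD it lay between 0.202 and 0.524 (median 0.349) and between 0.5002 and 1.39 RPKM (median 0.771), so these groups overlapped for Cyp3a16 but not for Cyp3a44. The means of Cyp3a44 and Cyp3a16 differed by less than the larger of their SDs in both chow groups and on HFD with GCGR antibody.

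Cyp3a41a and Cyp3a41b had exactly the same value in 9 of the 23 libraries. Together they were at 3.55, 3.05, 3.96, 4.25 and 4.94 RPKM in the control chow libraries and between 3.33 and 5.71 with GCGR antibody. On HFD the sum lay between 0.201 and 0.546 with control antibody (median 0.379) and between 0.761 and 1.81 RPKM with GCGR antibody (median 1.22), without overlap. In the control HFD libraries nearly all of it was listed under Cyp3a41a, at 0.338 ± 0.0711 RPKM. Cyp3a41b was under 0.001 RPKM in 5 of the 6 libraries (12, 13, 14, 16 and 17) and listed at 0 in library 13. Both were again alike in the GCGR antibody libraries on HFD, at 0.646 ± 0.203 and 0.613 ± 0.247 RPKM. No ratio of means is given for Cyp3a41b on its own, and its fitted log2 changes below depend on the pseudocount.

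**Figure D2:**
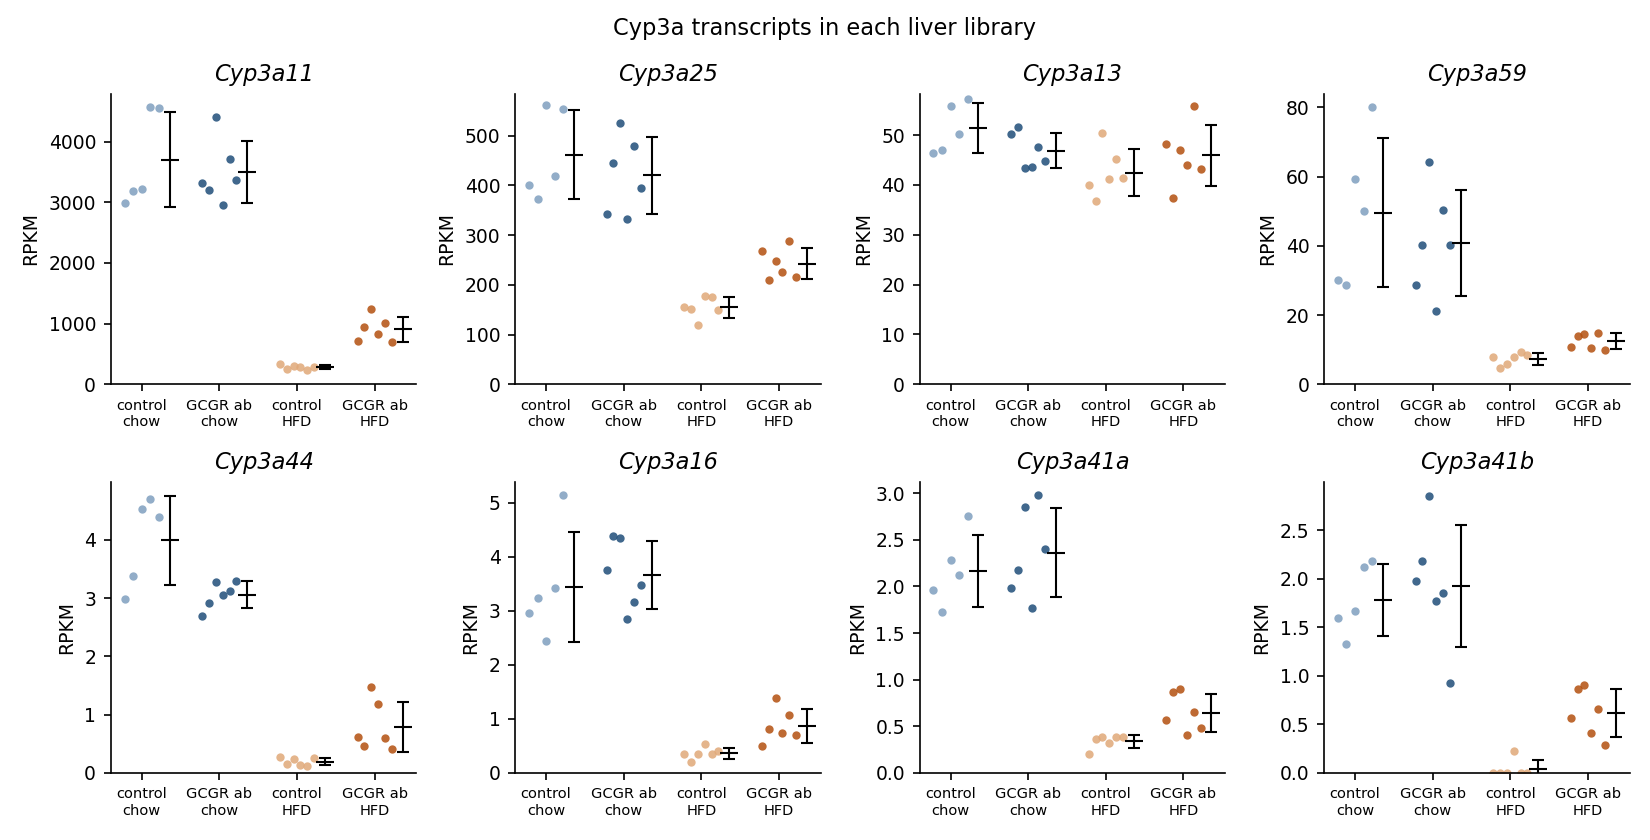
RPKM of the 8 Cyp3a genes in each of the 23 libraries, each point 1 library and each panel on its own linear axis from 0, with bars for the group mean and SD. Cyp3a11, Cyp3a25, Cyp3a59 and Cyp3a16 lie lower in all HFD libraries than in all chow libraries. So do the 3 genes tested through their chow level alone, a choice that favours a difference. Cyp3a13 stays between 36.8 and 57.3 RPKM throughout.

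HFD was compared with chow under control antibody to see how the family differed with diet alone. The genes were lower on HFD. On the log2(RPKM + 1) scale the difference was largest for Cyp3a11 and smallest for Cyp3a13, while by the ratio of means Cyp3a44 differed more than Cyp3a11. The ratio of Cyp3a44 rests on a control HFD mean of 0.193 RPKM, under the filter's minimum of 0.5 RPKM, so that order is uncertain. The means of Cyp3a16 and of the Cyp3a41 pair in that group, 0.362 and 0.375 RPKM, also lie under the minimum. The mean of Cyp3a11 was 13.1 times higher on chow than on HFD, that of Cyp3a44 20.7 times, that of Cyp3a41a and Cyp3a41b together 10.5 times and that of Cyp3a16 9.50 times. For Cyp3a59 it was 6.71 times, for Cyp3a25 2.98 times and for Cyp3a13 1.21 times higher. The summed RPKM of the 8 genes went from 0.694% ± 0.144 of the whole table on chow to 0.0751% ± 0.00443 on HFD.

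Cyp3a11 had a log2 change of -3.69 ± 0.15 (adjusted p = 6.579e-14), with the smallest p of all 11939 genes and the decrease that ranked 4 by size. Cyp3a59 changed by -2.51 ± 0.25 (adjusted p = 4.050e-07), Cyp3a16 by -1.68 ± 0.13 (6.551e-09) and Cyp3a25 by -1.56 ± 0.13 (4.468e-08). For Cyp3a13 the change was -0.27 ± 0.09 (adjusted p = 0.0258), and its groups overlapped. That call was lost without library 3, 5, 12 or 13 (adjusted p = 0.0713, 0.0761, 0.0521 and 0.0532) and with median-ratio scaling (0.0641). Cyp3a44, Cyp3a41a and Cyp3a41b reached the filter's minimum of 0.5 RPKM in 11 chow libraries but in only 4 on HFD. They were thus tested because of their chow level, a choice that favours a difference. Their changes, given as description, were -2.05 ± 0.12, -1.24 ± 0.10 and -1.42 ± 0.13. Of the other 5 members, 5 were called lower, where 18.3% of all genes tested were called lower. Among these 5, Cyp3a16 reached the minimum in 7 HFD libraries. Of the control HFD libraries compared here only library 15 did, at 0.5243 RPKM. Without overlap between the groups were 4 of these 5, all but Cyp3a13, against 10.4% of all genes tested. For low members a pseudocount of 1 understates such changes. With a pseudocount of 0.1 Cyp3a16 changed by -2.93 and Cyp3a44 by -3.81.

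Under GCGR antibody the fitted diet difference was smaller in each member. The test of that change is the same as the test of the difference between antibody effects, given after the antibody comparisons. The mean of Cyp3a11 was 3.86 times higher on chow than on HFD, a log2 change of -1.97 ± 0.14 (adjusted p = 2.916e-09). Cyp3a16 changed by -1.33 ± 0.12 (adjusted p = 9.454e-08), Cyp3a59 by -1.57 ± 0.24 (6.044e-05) and Cyp3a25 by -0.78 ± 0.13 (1.181e-04). Cyp3a13 was at -0.03 ± 0.08 and did not pass the test (adjusted p = 0.789). Of the 5 members not tested through chow alone, 4 were called lower, where 16.6% of all genes tested were, and the same 4 did not overlap, against 5.10%. Cyp3a44, Cyp3a41a and Cyp3a41b were at -1.21 ± 0.12, -1.03 ± 0.09 and -0.84 ± 0.13.

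The GCGR antibody was then compared with control antibody on each diet, to see what blocking the receptor did to the family. On chow, no member passed the test, where 0.946% of all genes tested were called in either direction. The values were -0.07 ± 0.15 for Cyp3a11 (adjusted p = 0.917), -0.14 ± 0.13 for Cyp3a25 (0.788), -0.13 ± 0.09 for Cyp3a13 (0.655) and -0.25 ± 0.25 for Cyp3a59 (0.789). The low members lay between -0.29 ± 0.12 for Cyp3a44 (adjusted p = 0.391) and 0.09 ± 0.13 for Cyp3a16 (0.864), with Cyp3a41a at 0.08 ± 0.10 and Cyp3a41b at 0.05 ± 0.13. At an unadjusted p under 0.05 there was 1 member, Cyp3a44, and an exact rank-sum test, whose smallest adjusted p over all genes was 0.173, called none. In all 8 genes the chow groups overlapped, against 2.50% of all genes tested without overlap.

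On HFD, the GCGR antibody libraries had higher levels of 5 members. Cyp3a11 rose from 282 to 905 RPKM, 3.21 times, a log2 change of 1.66 ± 0.14 (adjusted p = 7.857e-08) that ranked 6 by p and 10 by size of increase among all genes. Cyp3a25 rose 1.57 times (0.65 ± 0.13, adjusted p = 0.00288). Cyp3a44 was 4.08 times higher by its means (0.55 ± 0.12, adjusted p = 0.00428), Cyp3a16 2.4 times (0.44 ± 0.12, adjusted p = 0.0265), and Cyp3a41b passed at 0.63 ± 0.13 (adjusted p = 0.00326). Cyp3a41a did not pass (0.29 ± 0.09, adjusted p = 0.0594). The sum of Cyp3a41a and Cyp3a41b, 3.36 times higher by its means, did (0.70, adjusted p = 8.475e-04). Cyp3a59 at 0.69 ± 0.24 and Cyp3a13 at 0.11 ± 0.08 did not pass (adjusted p = 0.0861 and 0.458).

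These 5 of 8 members compare with 5.33% of all genes tested that were called higher. Without overlap were 6 of the 8, namely Cyp3a11, Cyp3a25, Cyp3a41a, Cyp3a41b, Cyp3a44 and Cyp3a59, against 2.0% of all genes. Members that share sequence are not independent of each other in these counts. The call of Cyp3a16 was lost without library 12, 13, 14, 20 or 22 (adjusted p = 0.0542, 0.0504, 0.0507, 0.0647 and 0.0652). Cyp3a41a was called without library 9, 21 or 23 (adjusted p = 0.0486, 0.0431 and 0.0482). Cyp3a59 was called when the 2 HFD groups were fitted alone (adjusted p = 0.0210). With an exact rank-sum test no gene reached the threshold, the smallest adjusted p of all genes being 0.0760. For 6 against 6 libraries its unadjusted p cannot go under 0.00216, the value of groups without overlap. Members without overlap could thus do no better in it. The low members lie near the pseudocount, and with 0.1 in place of 1 their changes were 1.04 for Cyp3a16, 0.74 for Cyp3a41a, 2.47 for Cyp3a41b and 1.499 for Cyp3a44.

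With GCGR antibody on HFD, Cyp3a11 was at 24.4% of its mean in control chow livers, against 7.61% with control antibody on HFD. The same pair of values was 52.5% and 33.5% for Cyp3a25, 25.1% and 14.9% for Cyp3a59, 25.3% and 10.5% for Cyp3a16 and 19.7% and 4.83% for Cyp3a44. For Cyp3a41a and Cyp3a41b together it was 31.9% and 9.49%. The antibody comparison on HFD and the diet comparison under control antibody share the 6 control HFD libraries, so these pairs are not independent measurements. Cyp3a11 took 57.7% ± 4.71 of the summed RPKM of the family on HFD with control antibody and 74.4% ± 4.11 with GCGR antibody, and ranked 267 and 86 among all genes.

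Whether the antibody effect differed between the diets was tested directly as the difference between the effects. Cyp3a11 had the smallest p of all 11939 genes in this test, with a difference of 1.73 ± 0.20 on the log2 scale (adjusted p = 2.101e-04). Cyp3a44 differed by 0.84 ± 0.17 (adjusted p = 0.0381). These 2 were the members called higher, where 0.126% of all genes tested were. Cyp3a25 was at 0.78 ± 0.19 (adjusted p = 0.0951), Cyp3a59 at 0.94 ± 0.35 (0.362), Cyp3a41b at 0.57 ± 0.18 (0.254), Cyp3a16 at 0.35 ± 0.18 (0.519), Cyp3a13 at 0.24 ± 0.12 (0.543) and Cyp3a41a at 0.21 ± 0.14 (0.641), and none of these passed. The call of Cyp3a44 was lost when any 1 of libraries 3 to 10, 12, 14, 15, 17, 21 and 22 was left out, with adjusted p from 0.0589 to 0.109. It was also lost without a filter on low values (0.0797) and with a common summed RPKM (0.0723). Cyp3a41b was called with a pseudocount of 0.1 (adjusted p = 0.0209). Cyp3a25 was called without libraries 19 and 20 (adjusted p = 0.0478), which correlated least with their own group.

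**Figure D3:**
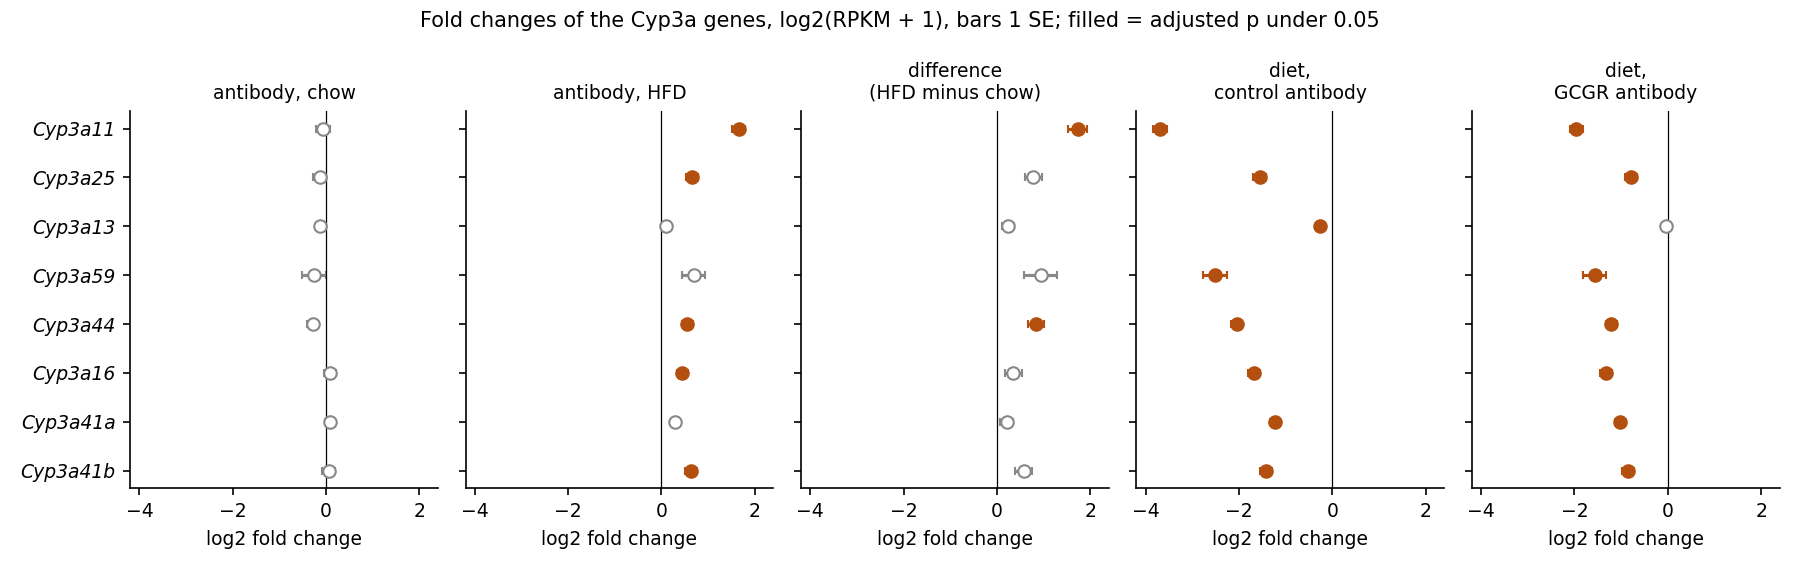
Log2 fold changes of the 8 Cyp3a genes in 5 comparisons, on the log2(RPKM + 1) scale, with bars of 1 SE and filled points for an adjusted p under 0.05. On chow no member is filled for the antibody, on HFD 5 are filled to the right of 0, and in both diet comparisons Cyp3a13 lies closest to 0.

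Cyp3a16 and the Cyp3a41 pair had overlapping ratios to Cyp3a11 in all groups, while the mean of Cyp3a11 differed up to 13.1-fold. Cyp3a16 was 0.0927% ± 0.0168 and 0.106% ± 0.0180 of Cyp3a11 on chow, and 0.129% ± 0.0381 and 0.0941% ± 0.0156 on HFD, control antibody first each time. Cyp3a41a and Cyp3a41b together were 0.108% ± 0.0135, 0.122% ± 0.0132, 0.136% ± 0.0442 and 0.138% ± 0.0317 of Cyp3a11 in the same groups. Cyp3a44 was 0.109% ± 0.0180, 0.0887% ± 0.0109, 0.0673% ± 0.0167 and 0.0855% ± 0.0375. In contrast, for Cyp3a44 the control libraries did not overlap between chow (0.0964% to 0.141%) and HFD (0.0470% to 0.0858%). These are the members whose words lie within 2 mismatches of Cyp3a11, and the part of misassigned Cyp3a11 reads in their levels was not tested.

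Cyp3a59, the near copy of Cyp3a25, did not keep its ratio to that gene. It was 10.4% ± 2.97 and 9.45% ± 2.02 of Cyp3a25 on chow and 4.78% ± 0.882 and 5.17% ± 0.987 on HFD. The control groups ran from 7.47% to 14.5% on chow and from 3.16% to 5.66% on HFD, without overlap. Cyp3a13, of which no word is shared, moved least of all members.

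**Figure D4:**
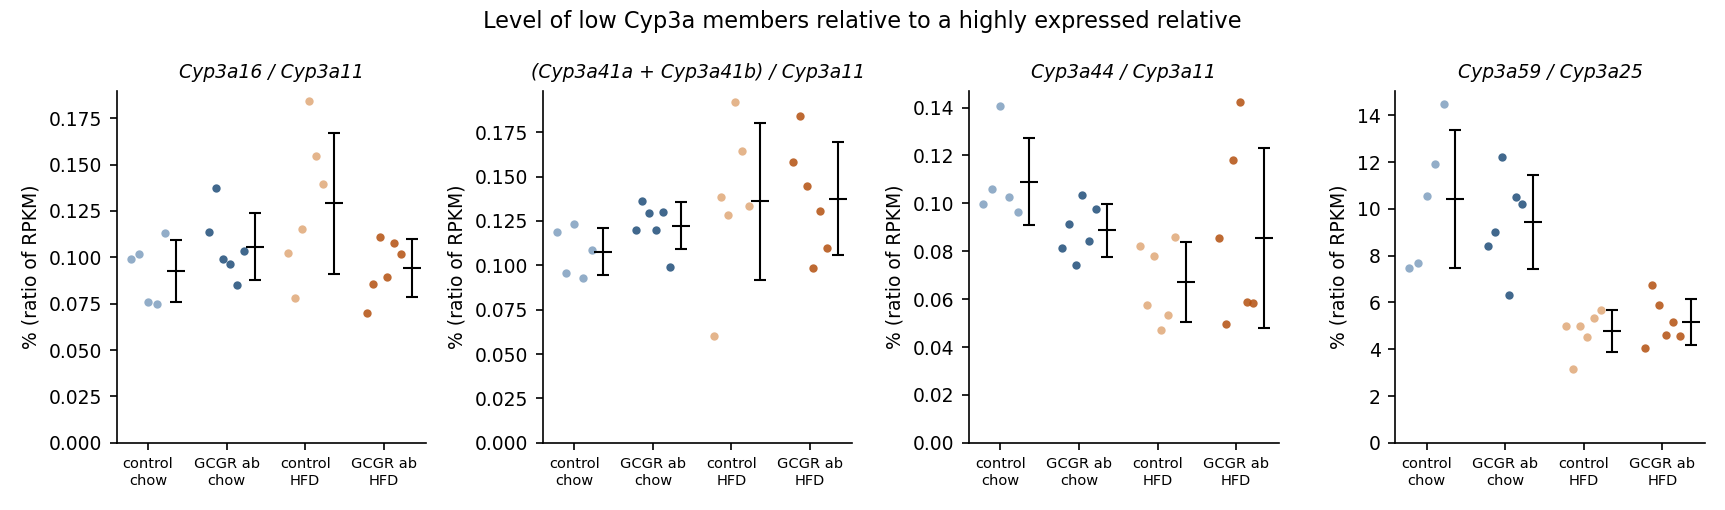
RPKM of a low Cyp3a gene as a percentage of the RPKM of an abundant relative, each point 1 library, with bars for the group mean and SD and linear axes from 0. Cyp3a16 and the Cyp3a41 pair stay between 0.0602% and 0.192% of Cyp3a11 in all groups, while Cyp3a59 is at 10.4% of Cyp3a25 in control chow livers and 4.78% in control HFD livers.

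The sequence just upstream of the genes was looked at because most members moved together. The 250 bases before each start were taken from the RefSeq promoter table, whose start can lie inside the gene's span given above, farthest inside for Cyp3a13. The first 140 of them lie before every annotated transcript of the gene in the members shown here, and capitals mark matches to the nuclear receptor half-sites AGTTCA or AGGTCA on either strand.
Cyp3a11, chr5:145879965-145880104, minus strand: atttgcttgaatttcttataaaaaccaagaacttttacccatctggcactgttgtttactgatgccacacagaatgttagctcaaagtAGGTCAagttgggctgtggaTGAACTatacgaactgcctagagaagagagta
Cyp3a44, chr5:145805985-145806124, minus strand: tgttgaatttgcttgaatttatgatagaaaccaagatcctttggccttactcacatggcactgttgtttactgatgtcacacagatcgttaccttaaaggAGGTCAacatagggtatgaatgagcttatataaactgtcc
Cyp3a41a, chr5:145720247-145720386, minus strand: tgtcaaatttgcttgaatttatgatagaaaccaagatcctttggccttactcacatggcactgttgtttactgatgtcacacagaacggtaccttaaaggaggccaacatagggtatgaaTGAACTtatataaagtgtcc
Cyp3a16, chr5:145469834-145469973, minus strand: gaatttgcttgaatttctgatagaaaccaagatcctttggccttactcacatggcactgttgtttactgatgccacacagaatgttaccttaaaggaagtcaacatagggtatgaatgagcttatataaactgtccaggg
Cyp3a25, chr5:146009729-146009868, minus strand: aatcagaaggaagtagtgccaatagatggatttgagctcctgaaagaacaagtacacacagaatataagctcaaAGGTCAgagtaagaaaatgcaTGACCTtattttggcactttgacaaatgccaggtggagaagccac
In the full window of 300 bases around the start, Cyp3a11 held 1 match to each half-site, Cyp3a44 1 to AGGTCA, Cyp3a41a and Cyp3a41b 1 to AGTTCA, and Cyp3a25 and Cyp3a59 2 to AGGTCA. Cyp3a16 and Cyp3a13 held none. For Cyp3a59 the bases after the table's start were not found in its GENCODE transcript, so its window is uncertain. Of 32851 mouse promoter windows of this length, 13.99% held AGTTCA and 16.26% AGGTCA, so single matches are common. Direct repeats of either half-site spaced by 3 or 4 bases and everted repeats spaced by 6, the arrangements that PXR and CAR are known to bind, were found in none of the 8 members and in 0.01%, 0.03% and 0.01% of all windows. Only exact copies of both half-sites within the window were counted. Repeats with a mismatch or farther from the start were not searched for, so the genes may still have such sites. The upstream 250 bases of Cyp3a16 were 92.9% identical to those of Cyp3a44 and 76.2% to those of Cyp3a11. Cyp3a11 and Cyp3a25 were 50.6% identical there, and Cyp3a11 and Cyp3a13 51.1%.

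The genes most like Cyp3a11 over the 23 libraries, by Pearson's r of log2(RPKM + 1), were mostly members of its own family. Cyp3a44 (0.97), Cyp3a16 (0.96), Cyp3a41b (0.96), Cyp3a41a (0.96), Cyp3a25 (0.95) and Cyp3a59 (0.94) were all among the first 10, while Cyp3a13 (0.52) ranked 3014. Cyp3a44, Cyp3a41a and Cyp3a41b were tested through their level on chow, where Cyp3a11 was also high, a choice that favours a high r. The 5 other genes with the highest r were Itih5 (0.96), Cyp2f2 (0.95), Ugt2b35 (0.94), Ces2a (0.93) and Cd276 (0.93). Ces2a, a carboxylesterase, was at 265, 300.5, 46.7 and 70.3 RPKM in the 4 groups, and Cyp2f2, a P450 of periportal hepatocytes, at 820.1, 910, 314 and 434 RPKM, in the order control and GCGR antibody on chow and then on HFD. After subtraction of the group means, r was 0.43 for Itih5, 0.23 for Cyp2f2, 0.17 for Ugt2b35, -0.18 for Ces2a and 0.09 for Cd276. For the members it was then 0.70 for Cyp3a16, 0.61 for Cyp3a44, 0.62 for Cyp3a59 and 0.28 for Cyp3a25. It was 0.60 for Cyp3a41a, 0.60 for Cyp3a41b and 0.14 for Cyp3a13. The libraries share 2 diets and 2 antibodies, so these values describe the groups as much as single libraries. Many words of Cyp3a16, Cyp3a44, Cyp3a41a and Cyp3a41b lie within 2 mismatches of Cyp3a11, and the part of misassigned reads in their r was not tested.

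The receptors that raise Cyp3a transcription were looked at next. The transcript of PXR, Nr1i2, had chow means of 25.1 ± 1.86 RPKM (control) and 26.0 ± 3.30 RPKM (GCGR antibody). Its HFD means were 25.7 ± 3.72 and 27.0 ± 4.28 RPKM. It passed no test, with log2 changes of 0.06 ± 0.10 for the antibody on HFD (adjusted p = 0.744) and 0.02 ± 0.11 for diet (0.891). CAR, Nr1i3, was at 84.8 ± 15.6, 95.0 ± 23.4, 101 ± 12.7 and 143 ± 24.5 RPKM in the same order. It rose with GCGR antibody on HFD (0.48 ± 0.14, adjusted p = 0.0365), but this call was lost with median-ratio scaling (0.0700), a common summed RPKM (0.0571), no filter on low values (0.0607) and the exact rank-sum test (0.127), and without library 12, 14, 17, 18, 20, 21 or 22 (adjusted p from 0.0505 to 0.0903). Rxra passed neither test (0.08 ± 0.07, adjusted p = 0.509, and 0.09 ± 0.08, 0.419). Hnf4a, a factor that hepatocyte genes depend on, was at 140 ± 5.46 on chow and 117 ± 8.36 RPKM on HFD with control antibody, a change of -0.25 ± 0.09 (adjusted p = 0.0302). That call was lost with median-ratio scaling (0.0569) and without library 1, 2, 4, 5 or 17 (adjusted p from 0.0501 to 0.0758).

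In the whole list of 23 receptors, partners and hepatocyte factors tested, none changed with the antibody on chow, against 0.946% of all genes tested. With GCGR antibody on HFD 4 rose and 0 fell, against 5.33% and 2.12% of all genes tested. Among the 4 were the corepressor Ncor1 (0.32 ± 0.05, adjusted p = 4.443e-04) and the bile acid receptor Nr1h4 (0.41 ± 0.08, 0.00195). Only 2 of the 23 were called with either other scaling. With diet 3 of the 23 rose and 3 fell, near the 11.6% and 18.3% of all genes tested that were called higher and lower, among them the fatty acid receptor Ppara (0.72 ± 0.13, adjusted p = 5.184e-04) and Ncor1 (-0.25 ± 0.05, 0.00198). The list's median log2 change was 0.12 for the antibody on HFD and 0.02 for diet, against 0.05 and -0.03 over all genes tested.

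Genes that supply the P450s with electrons and haem were counted as a list of 14. Por, the reductase that passes electrons to all P450s of the endoplasmic reticulum, was at -0.34 ± 0.20 with GCGR antibody on chow, 0.34 ± 0.19 with it on HFD and -0.07 ± 0.20 with diet, none passing the test (adjusted p = 0.573, 0.273 and 0.809). None of the 14 changed with the antibody on chow, against 0.946% of all genes tested. None rose with it on HFD, where 5.33% of all genes tested did. At such shares a list of 14 may well hold none. With diet 2 rose and 2 fell, shares near those of all genes tested (11.6% and 18.3%), and the haem synthesis gene Cpox was among the higher ones (0.31 ± 0.07, adjusted p = 0.0027).

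Other known target genes of PXR and CAR moved in both directions. Of 40 tested, 3 reached the filter's minimum through 1 diet only. Of the other 37, 20 fell and 5 rose with diet under control antibody, against 18.3% and 11.6% of all genes tested, with a median log2 change of -0.46 against -0.03. Ces2a fell by 2.51 ± 0.17 in log2 terms (adjusted p = 1.007e-09), and the changes were -2.166 ± 0.19 (5.989e-08) for Cyp2c55 and -2.165 ± 0.47 (0.00169) for Cyp2b10, the usual marker gene of CAR activity. In the antibody comparison on HFD, 8 of the 40 rose and 2 fell, against 5.33% and 2.12% of all genes tested, with a median of 0.36 against 0.05. Aldh1a1, a retinaldehyde dehydrogenase, rose (0.59 ± 0.08, adjusted p = 6.511e-05) and the glutathione transferase Gstm2 fell (-1.21 ± 0.14, 9.334e-06). In the HFD groups Cyp2b10 had means of 0.533 ± 0.503 and 3.25 ± 5.61 RPKM, and its change missed the threshold (0.83 ± 0.44, adjusted p = 0.259). The number that rose was 4 with median-ratio scaling. On chow the transporter Slco1a4 alone changed (-1.44 ± 0.31, adjusted p = 0.0215), against 0.946% of all genes tested.

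Enzymes that act on steroids and bile acids, the natural substrates of Cyp3a, were counted as a further list of 19. With diet 8 fell and 0 rose, against 18.3% and 11.6% of all genes tested, including Cyp2c70, which makes muricholic acids (-1.74 ± 0.17, adjusted p = 2.330e-07), and Cyp7b1, an oxysterol hydroxylase (-2.23 ± 0.31, 2.742e-05). In the antibody comparison on HFD 6 rose and 0 fell, against 5.33% and 2.12%, including Cyp2c70 (1.32 ± 0.16, adjusted p = 1.629e-05) and Baat, which conjugates bile acids (0.46 ± 0.07, 2.271e-04). On chow none changed, against 0.946% of all genes tested. The list's medians were -0.36 and 0.26 for diet and for the antibody on HFD, against -0.03 and 0.05 over all genes tested.

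Several Cyp3a genes are known to differ between male and female liver, so genes of either bias were counted too. Of 21 male-biased genes, 20 reached the filter's minimum in enough libraries of both diets. Of these 17 fell and 0 rose with diet under control antibody, against 18.3% and 11.6% of all genes tested, with a median log2 change of -1.90 against -0.03. Ugt2b38 (-2.36 ± 0.17, adjusted p = 3.859e-09) and Gstp1 (-2.03 ± 0.20, 3.860e-07), both conjugating enzymes, had the smallest p. Of 17 female-biased genes other than Cyp3a, 6 were tested through their HFD level alone, a choice that favours a difference. Of the other 11, 6 rose and 2 fell, with a median of 0.67. Cyp17a1, a steroid hydroxylase, rose (3.25 ± 0.26, adjusted p = 1.319e-08). Cyp2b9, 1 of the 6, was at 0.152 ± 0.161 RPKM on chow and 85.5 ± 38.3 RPKM on HFD. Cyp3a41a, Cyp3a41b and Cyp3a44, known from female liver, were lower on HFD, but they were tested through their chow level, which favours a difference. The part of misassigned Cyp3a11 reads in their levels was not tested.

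Among the male-biased genes, 3 of 21 rose and 1 fell in the antibody comparison on HFD, against 5.33% and 2.12% of all genes tested. Mup20, a urinary pheromone protein, rose (1.38 ± 0.23, adjusted p = 4.339e-04), and the fatty acid elongase Elovl3 fell (-1.89 ± 0.35, 0.00133). Without libraries 19 and 20, 14 rose. Of the 17 female-biased genes 2 rose and 2 fell, with Cyp17a1 lower (-3.11 ± 0.25, adjusted p = 2.515e-08) and the monooxygenase Fmo1 higher (0.56 ± 0.09, 3.698e-04). On chow Mup20 (1.16 ± 0.24, adjusted p = 0.0139) and the female-biased Cyp2c40 (1.47 ± 0.27, 0.00598) rose. No other gene of these lists changed there, and 0.946% of all genes tested did. The Mup, Cyp2b, Cyp2c and Ugt2b genes also have near copies that short reads can confuse.

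**Figure D5:**
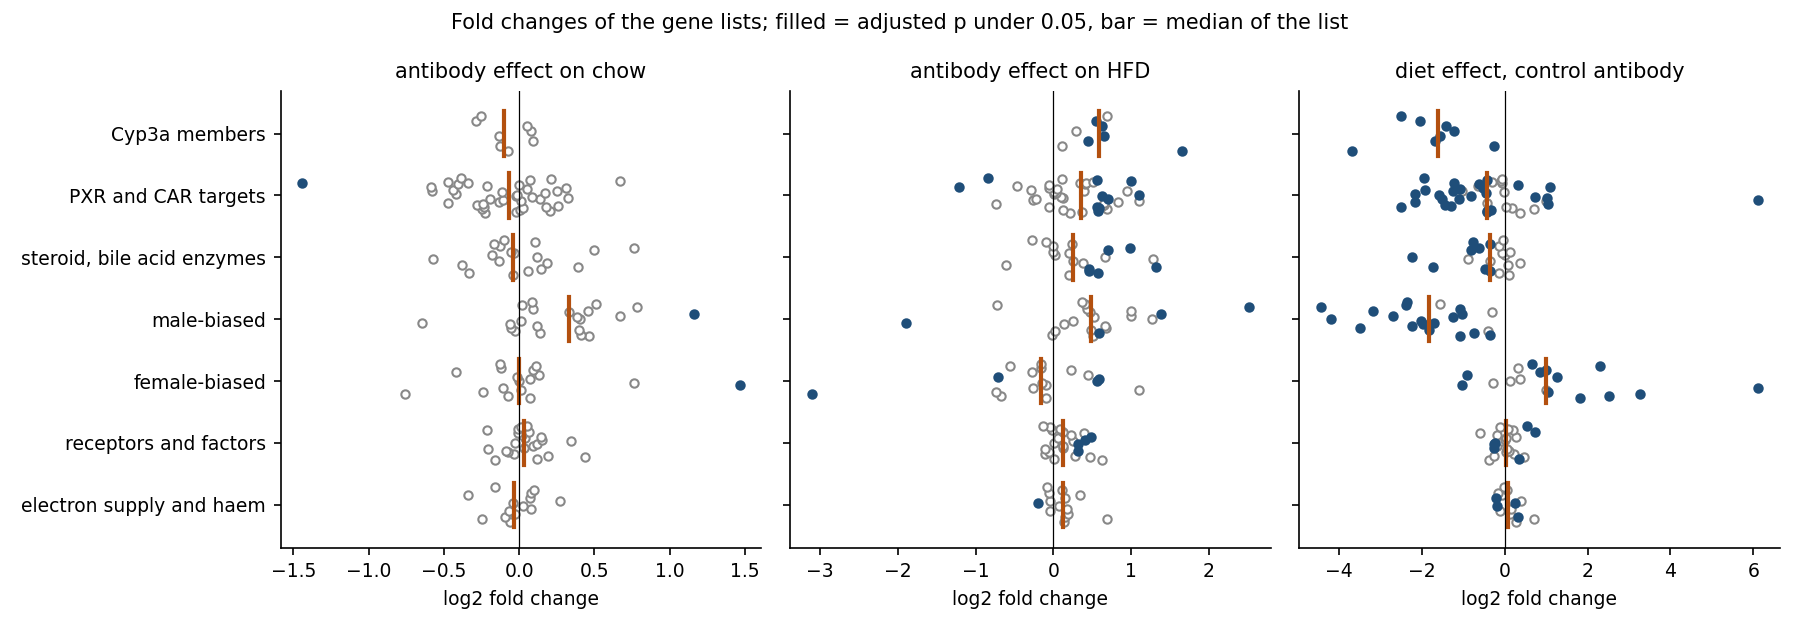
Log2 fold changes of the Cyp3a genes and of 6 lists of related genes in 3 comparisons (the horizontal axes differ), each point 1 gene, filled for an adjusted p under 0.05, with a bar for the median of the list. With diet the Cyp3a genes and many PXR and CAR targets lie left of 0. The median of the male-biased genes lies left of 0 and that of the female-biased genes right of it, though 2 female-biased genes were called lower. Some genes, among them 3 Cyp3a genes and 6 female-biased ones, were tested through their level on 1 diet alone, a choice that favours a difference. With GCGR antibody on HFD the filled Cyp3a points are all right of 0.

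In bulk liver RNA, fewer cells of a type and less RNA per cell cannot be told apart. Summed RPKM per library ran from 594026 to 692295, with 15365 to 16032 genes above 0, and no total read number is given. The tissue label held for its markers. The summed level of 8 hepatocyte markers ran from 54519 to 69598 RPKM in the chow libraries and from 57135 to 72950 in the HFD libraries. The summed level of 12 pericentral hepatocyte markers, the zone in which much P450 expression is known, ran from 4607 to 6629 RPKM with control antibody on HFD and from 5677 to 8132 with GCGR antibody, and that of 12 periportal markers from 3312 to 4642 and from 2264 to 3241. On chow the pericentral sums were 4466 to 4982 and 3949 to 5641 RPKM and the periportal sums 4839 to 6634 and 2672 to 3921 RPKM. Cyp2e1 made up 72.0% of the pericentral sum and Ass1 30.6% of the periportal sum. With the antibody on HFD Ass1 fell (-1.20 ± 0.14), while Cyp2f2, also a periportal marker, rose (0.47 ± 0.11). Of the 12 pericentral markers 2 rose and 2 fell with the antibody on HFD, 1 fell with it on chow, and 5 rose and 1 fell with diet. Of the 12 periportal markers 1 rose and 5 fell with the antibody on HFD, 3 fell with it on chow, and 5 fell with diet. Among all genes tested, 5.33% rose and 2.12% fell with the antibody on HFD, and 0.946% were called with it on chow. With diet under control antibody 11.6% rose and 18.3% fell. The part of these zones in the Cyp3a differences was not tested. Of 10 enterocyte markers only Fabp2 and Anpep, which liver also expresses, were tested, and both rose with diet, while Cdx1, Alpi and Fabp6 were listed at 0 in every library and Vil1 reached at most 0.113 RPKM.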

How the data were processed

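RNA of 23 liver samples was sequenced. Per the labels' protocols, strand-specific libraries came from a KAPA mRNA-Seq kit, and a HiSeq 2500 read 33 bases from 1 end. The submitters' processing notes name bcl2fastq 2.17, FastQC and GRCm38. Which aligner, counting method, strand setting and annotation were used is not given in the sources used here. RPKM values for 24475 genes were deposited by the authors. These carry no read totals, so count models and counting intervals were left out.

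Diet, antibody and library number were read from sample titles. The filter kept the 11939 genes that reached 0.5 RPKM in 5 or more libraries. Their log2(RPKM + 1) values were fitted with 4 group means over all 23 libraries in limma 3.58.1 (R 4.3.3), with a mean-variance trend, two-sided, and p-values were adjusted by Benjamini-Hochberg over the 11939 genes. The procedure was tested on simulated data. Gene copies were compared with Biopython 1.88 on GENCODE transcripts, and upstream sequences and positions are from RefSeq tables of GRCm38.p6. All 8 members were found in these tables by symbol.

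The members, lists and tests were chosen with earlier results of these data known. In each list the 2 called genes with the smallest adjusted p were named for 3 comparisons, besides Nr1i2, Nr1i3, Rxra, Hnf4a, Por and Cyp2b10. The values of 1 gene that this rule names are not reported here. Marker lists of macrophages, T cells, endothelial, stellate, bile duct and pancreas cells were also summed. Of these, macrophage markers numbered 0 of 8 called in the control-antibody diet comparison and in both antibody comparisons, endothelial and stellate markers at most 1, T cell markers at most 2 of 2, and bile duct and pancreas markers 0. In the diet comparison under GCGR antibody 4 of 8 macrophage markers fell, 4 of 8 stellate markers rose and 2 of 2 T cell markers rose. Of 6 endothelial markers 1 rose and 2 fell there. Of all 11939 genes tested, 1579 rose and 1983 fell in that comparison. Alternatives were another pseudocount, other filters, 2 other scalings, 2 groups alone, array weights, an exact rank-sum test, each library left out and, added after seeing the data, libraries 19 and 20 left out together.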

Additional observations from a re-analysis of the deposited data

Results flagged for a closer look

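Among 32 pairs of a member and a group, 2 held a library far from the others of its group, and chance gives about 1 in 20. Cyp3a41a in the control HFD livers was lowest in library 12, at 0.2005 RPKM, where the next lowest library had 0.3241 RPKM. Cyp3a41b in the same group was highest in library 15, at 0.2223 RPKM, where the next highest library had 2.8143e-05 RPKM. Both belong to the pair of near-identical genes, whose sum in libraries 12 and 15 was the lowest and the highest of the group, at 0.201 and 0.546 RPKM.

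The antibody effect differed between the diets in 2 members by the test of the difference itself. For Cyp3a11 the effect on HFD minus that on chow was 1.73 on the log2 scale (adjusted p = 2.101e-04, limma), with every GCGR antibody library above every control library on HFD and overlap on chow. For Cyp3a44 it was 0.84 (adjusted p = 0.0381), again without overlap on HFD and with overlap on chow. This call was lost in 16 of 30 alternatives, among them 14 single libraries left out, with adjusted p up to 0.109.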

How the results depend on the processing

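Cyp3a11 kept its direction and its side of the threshold in all 32 alternatives of the diet comparison under each antibody (-3.77 to -3.61 under control antibody and -2.11 to -1.90 under GCGR antibody), and in all 30 of the difference between antibody effects (1.58 to 1.80). Its antibody effect on HFD (1.51 to 1.73) was lost only with the exact rank-sum test, at an unchanged 1.66 and an adjusted p of 0.0760. No gene had a lower adjusted p in that test on HFD. That test called 0 members and 0 genes in all for the antibody on HFD (2057 at an unadjusted p under 0.05), 0 genes for the antibody on chow (1092) and 2267 for diet under GCGR antibody. In the difference between antibody effects 2 members were called, but only 1 without a filter on low values and 1 with each library scaled to a common summed RPKM, and 1 or 2 with single libraries left out. Cyp3a11 on chow, not called, ran from -0.143 to 0.0109 with single libraries left out, Cyp3a41b from -0.0312 to 0.169, and Cyp3a13 under diet with GCGR antibody from -0.0913 to 0.0220. Cyp3a13 there was at 0.0350 with array weights and 0.0251 without libraries 19 and 20.

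Over all genes tested, 113 were called for the antibody on chow (228 with array weights, 57 to 134 with single libraries left out) and 889 on HFD (423 with the 2 groups fitted alone, 2033 with array weights, 544 to 1604 with single libraries left out). For the difference between the effects 24 were called, 8 without a filter, 6 at a common summed RPKM, 190 with array weights, 132 without libraries 19 and 20, and 5 to 65 with single libraries left out. Median-ratio scaling moved the split of higher against lower calls from 636 and 253 to 377 and 503 for the antibody on HFD, from 15 and 9 to 7 and 10 for the difference, and from 1390 and 2183 to 1805 and 1818 for diet under control antibody. A common summed RPKM moved the last to 926 and 2678, and the split on chow from 47 and 66 to 31 and 76. The causes were not tested. No shift of the median of all genes reached 0.1.

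Among the regulators, uncalled effects near 0 changed sign. With median-ratio scaling, Nr1i2 and Hnf4a on chow were at -0.0068 and -0.0175, and at a common summed RPKM Hnf4a on chow was at -0.00571 and Nr1i2 with diet at -0.0452. Without libraries 19 and 20, Nr1i2 with antibody on HFD was at -0.0358. With single libraries left out, Rxra on chow ran from -0.0490 to 0.0259, Cyp2b10 on chow from -0.304 to 0.0885, Nr1i2 from -0.0105 to 0.110 with antibody on HFD and from -0.0218 to 0.0979 with diet, and Por with diet from -0.194 to 0.0308. No paired analysis was possible because no library number is shared between groups. With no read totals, depth limits chiefly the low members, which lie near the pseudocount on HFD.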
